A study of Mus musculus with 14 samples.

Results

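Neurotransmitter release was followed through 34 genes of the presynaptic release machinery and of synapse assembly in mouse spinal cord tissue, with and without injury and with and without an astrocyte knockout. The 34 were taken by name from a deposited table of 56748 genes, each has 1 row there, and all 34 passed a filter of at least 1 FPKM in at least 3 of the 14 libraries, as did 15155 genes in all. FPKM is the authors' count of sequenced fragments per kilobase of gene, scaled between libraries by median-of-ratios factors and not by plain library totals. It can be compared between genes of different length. The genes span 17 chromosomes, had mean levels from 2.43 FPKM (Homer1) to 464 FPKM (Cplx1), and rested on 27 to 62488 reads in a library.

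A synapse releases transmitter when a vesicle fuses with the presynaptic membrane. The vesicle SNARE synaptobrevin (VAMP) zips together with syntaxin and SNAP-25 on the plasma membrane, complexin and Munc13 prepare and hold this complex, and synaptotagmins trigger fusion when calcium enters. NSF and its adaptors then take the spent SNARE complex apart, dynamin and amphiphysin retrieve the membrane, and active zone scaffolds, neurexins, neuroligins and the postsynaptic density hold the contact in place. In the cord and brainstem, fast synapses are known for using Vamp1 and Syt2 where forebrain synapses use mainly Vamp2 and Syt1.

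The 14 libraries of poly(A)-selected RNA, 1 for each sample, fall into 4 groups: 3 of control uninjured and 4 of control SCI cord, and for the knockout 3 of AstroCSF1KO uninjured with 4 of AstroCSF1KO SCI cord. SCI is spinal cord injury, and injured tissue was collected 7 days afterwards with the lesion at its centre, against the equivalent region of uninjured animals. AstroCSF1KO stands for a deletion of Csf1 in astrocytes. Csf1 encodes colony-stimulating factor 1, a growth factor for microglia. The driver of the deletion, the kind of injury, the cord level, and the animals' strain, age and sex are not given in the labels, which also do not say whether replicates come from separate animals, so a p-value measures the spread between these samples. The tissue holds all cell types of the cord. A lower level of a neuronal gene in it can come from fewer neurons, from less RNA per neuron or from more RNA of other cells. These cannot be told apart.

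Several facts of the libraries touch every result. Csf1 itself read 4.24, 11.9 and 12.2 FPKM in the uninjured and 7.95, 17.6, 18.3 and 10.4 FPKM in the injured controls, and 8.23, 10.3 and 11.02 FPKM and 19.9, 16.4, 18.6 and 19.2 FPKM in the matching knockout groups. Without injury the groups overlapped only through control replicate 1, one of the libraries described next as standing apart: the other uninjured controls were above all 3 knockout libraries. After injury the knockout libraries overlapped the controls with or without the libraries that stand apart. Since Csf1 does not separate the groups in both conditions, and other cells of the tissue can also express it, the knockout groups are called the labelled knockouts throughout. In 3 control libraries (control uninjured replicate 1, control SCI replicates 1 and 4) the reads were spread over genes differently: genes seen with 1 read were 1.45 to 2.06% of those detected, against 8.44 to 11.6% in the other 11, and mitochondrial reads were 6.73 to 13.9% against 3.38 to 5.78%. In 4 labelled-knockout libraries (uninjured replicate 3, SCI replicates 2, 3 and 4) rRNA reads were 2.89 to 3.99%, against 0.290 to 0.764% elsewhere. Recovered reads ran from 13263610 to 21969581 a library. Summed Hox10 to Hox13 genes, which mark posterior cord, read 47.4 to 96.1 FPKM in uninjured and 4.45 to 23.3 FPKM in injured controls, and 26.9 to 58.4 against 3.27 to 13.1 FPKM in the labelled knockouts, so cord level and injury cannot be told apart.

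The 3 control libraries also shifted the 34 genes by their base composition. Uninjured replicate 1 minus the mean of the other uninjured controls ran from strongly positive for A+T-rich transcripts such as Syt4 to strongly negative for G+C-rich ones such as Nrxn2. Across the 34 genes this difference correlated with the G+C content of the longest coding transcript at Pearson's r = -0.84 (Spearman's rho = -0.81), and the same difference among the injured controls at r = -0.81 (rho = -0.80). The uninjured and injured differences followed each other across the genes at r = 0.98. All genes with a transcript, 13082 of the 15155, showed the same (r = -0.81 and -0.84). These are descriptions across genes that share libraries. Control changes and counts of calls are therefore given with and without the 3 libraries.

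**Figure D1:**
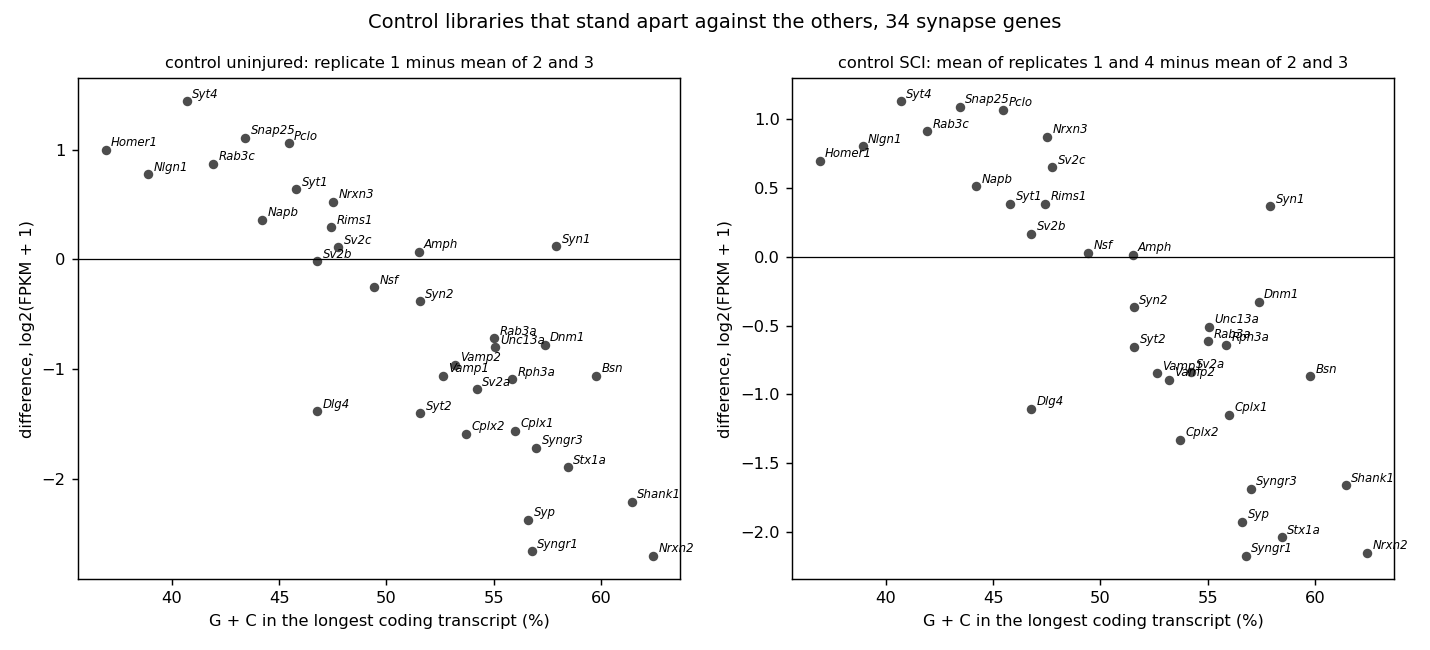
Difference in log2(FPKM + 1) between the control libraries that stand apart and the other controls (y axis) against the G+C percent of each gene's longest coding transcript (x axis), for the 34 synapse genes, uninjured at left and injured at right. Genes of low G+C such as Syt4, Snap25 and Pclo lie above 0 and those of high G+C such as Nrxn2, Stx1a and Syngr1 lie below it in both panels, with r = -0.84 and -0.81.

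Injury went with a lower level of release-machinery RNA in the tissue. In the labelled knockouts 30 of the 34 genes were called lower after injury (limma, adjusted p under 0.05 over all 15155 genes) and 0 were called higher, where 26.1% of all genes tested were called lower and 19.7% higher. The median log2 change was -0.66 over the 34 genes and -0.03 over all genes. In 31 of the 34 every injured library lay below every uninjured one, against 28.4% of all genes. Syt2, Vamp1, Rph3a and Dnm1 fell furthest, to 46.1%, 46.4%, 46.5% and 47.1% of their uninjured means. Stx1a, Nlgn1, Homer1 and Syt4 were not called. The fold changes are on the log2(FPKM + 1) scale, which understates those of low genes such as Nlgn1 and Homer1. A single fit over all 14 libraries, which shares the wider spread of the controls, called 8 of the 34 (Nsf, Rims1, Rph3a, Sv2b, Syn1, Syn2, Dnm1 and Amph), where 2.01% of all genes were called lower. Without the 4 rRNA-rich libraries, which leaves 1 injured against 2 uninjured, 12 were called, where 2.67% of all genes were called lower. That fit takes its spread from the uninjured pair alone and assumes that the lone injured library varies like them.

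In the controls 32 of the 34 genes had a lower mean after injury and the median log2 change was -0.68, but 0 were called, where 0.0132% of all genes were called lower and 1.03% higher. By unadjusted p, 12 of the 34 were under 0.05 with limma, where 9.61% of all genes were, and 6 with voom on recovered reads, where 9.54% were. Voom also called 0. Every injured control lay below every uninjured one for 9 genes (Nsf, Napb, Rims1, Sv2b, Sv2c, Syn1, Syn2, Dnm1 and Amph), against 4.76% of all genes. Without the 3 libraries that stand apart, 2 injured controls against 2 uninjured, 27 of the 34 were called lower, where 11.7% of all genes were, with a median of -0.70. The 7 not called there were Stx1a, Vamp2, Syt4, Cplx2, Rab3a, Syngr3 and Homer1. In that smaller set the uninjured libraries carry Xist (15.2 and 20.6 FPKM), a transcript of female cells, and the injured ones the Y-linked Ddx3y (13.8 and 11.8 FPKM), so sex and injury cannot be told apart in it. Among all controls, Ddx3y was found in uninjured replicate 1 and in injured replicates 1, 2 and 3, so sex was unbalanced there too. Both labelled-knockout groups hold libraries of either kind. Comparisons of genotype without the 3 libraries therefore also differ in sex, which no fit took into account. With the replicate number as a block, 5 of the 34 were called (Snap25, Rims1, Pclo, Sv2b and Amph), where 1.47% of all genes were called lower. There is no uninjured replicate 4, so that fit leaves injured replicate 4 out of the change, with a median of -0.58. Weighting libraries by their own spread called 25, where 15.7% of all genes were called lower, and 1 fit over all 14 libraries called 8, where 1.87% were.

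**Figure D2:**
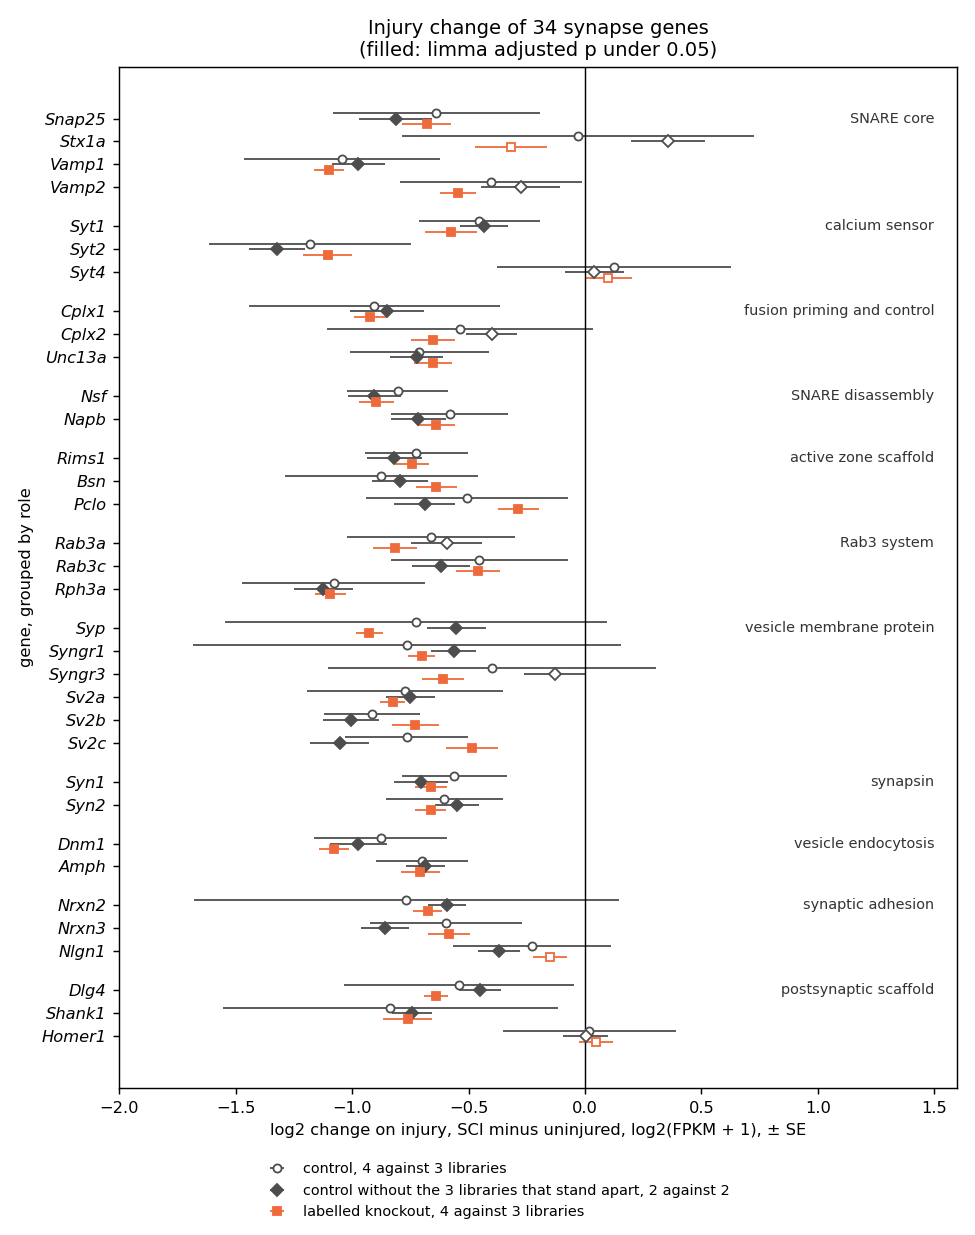
Log2 change on injury (x axis, SCI minus uninjured on the log2(FPKM + 1) scale, bars ± SE) of each of the 34 genes (y axis, grouped by role) in the controls, in the controls without the 3 libraries that stand apart, and in the labelled knockouts. Filled symbols mark adjusted p under 0.05: 0 genes in the controls, 27 without the 3 libraries and 30 in the labelled knockouts, all of them left of 0.

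Promoter sequence was looked up for the 34 genes, of which all but Stx1a, Syt4, Nlgn1 and Homer1 were called lower in the labelled knockouts. Any part of promoter sequence in these changes was not tested. RefSeq promoters were found for 28 of the 34 genes, and the 250 bases before the start of transcription were searched on both strands. RE1 is the element bound by the repressor REST, which holds neuronal genes off outside neurons, and its first block TTCAGCACC was in 2 of the 28 genes (Syn1 and Nlgn1) and in 0.348% of the 27025 genes with a promoter listed, a gene counting where any of its windows holds the letters. The cAMP-response element TGACGTCA was in 1 (Syn1) and in 1.77% of genes. Its core TGACG, which it contains, was in 7 of the 28 and in 19.8% of genes, and the GC box GGGCGG was in 17 of the 28 and in 35.4%. Over the 32851 promoter windows the shares were 0.301%, 1.546%, 17.8% and 32.7%. The 2 genes with the first block of RE1 are shown first, the rest of the element not having been searched. Then come Vamp1 as a gene with one of the largest falls and Homer1 as a gene that was not called. Nlgn1 and Homer1 each have 2 starts listed, and the window of 1 of them is shown. In RefSeq's GRCm38.p6, Syn1 is at chrX:20920919-20921168 on the minus strand, Nlgn1 at chr3:26153987-26154236 on the minus strand, Vamp1 at chr6:125215331-125215580 on the plus strand and Homer1 at chr13:93303507-93303756 on the plus strand. Capitals mark the RE1 block in Syn1 and Nlgn1, the cAMP-response element in Syn1, the GC box in Vamp1 and TGACG in Homer1. A match describes letters in this window only.
Syn1: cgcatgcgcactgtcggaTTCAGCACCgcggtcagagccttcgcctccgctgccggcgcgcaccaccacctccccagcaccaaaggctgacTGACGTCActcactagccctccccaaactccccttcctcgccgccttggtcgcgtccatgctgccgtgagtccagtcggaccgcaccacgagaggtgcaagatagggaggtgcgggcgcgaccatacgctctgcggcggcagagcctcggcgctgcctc
Nlgn1: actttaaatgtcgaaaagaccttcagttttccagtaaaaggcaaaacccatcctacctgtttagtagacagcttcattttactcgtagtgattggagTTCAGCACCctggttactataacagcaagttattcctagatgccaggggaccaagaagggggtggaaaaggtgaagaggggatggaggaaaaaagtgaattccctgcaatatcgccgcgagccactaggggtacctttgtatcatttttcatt
Vamp1: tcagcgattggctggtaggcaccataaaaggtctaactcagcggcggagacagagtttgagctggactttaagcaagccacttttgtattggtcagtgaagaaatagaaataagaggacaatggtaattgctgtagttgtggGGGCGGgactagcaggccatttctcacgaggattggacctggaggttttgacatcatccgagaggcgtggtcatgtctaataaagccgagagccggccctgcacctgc
Homer1: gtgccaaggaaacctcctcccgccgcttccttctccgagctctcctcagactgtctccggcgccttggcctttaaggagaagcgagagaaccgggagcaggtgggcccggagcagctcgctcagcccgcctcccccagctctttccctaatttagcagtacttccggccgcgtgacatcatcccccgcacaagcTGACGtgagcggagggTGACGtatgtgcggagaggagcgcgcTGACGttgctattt

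Values below are given in the order of the replicate numbers, changes are log2 changes with their SE from limma, and adjusted p-values are over all genes tested. Among the SNARE proteins, which carry out fusion, 3 of 4 were called lower in the labelled knockouts. Vamp1 (ENSMUSG00000030337, chr6:125192514-125222927, plus strand in mm39) encodes the vesicle SNARE synaptobrevin 1. Vamp1 read 78.8, 166 and 164 FPKM in the uninjured and 61.6, 88.5, 78.9 and 34.3 FPKM in the injured controls. Uninjured replicate 1 was low enough to fall within the range of the injured controls. For Vamp1 the labelled knockouts gave 165, 171 and 161 FPKM without injury and 76.1, 82.1, 77.7 and 71.5 FPKM with it. The labelled-knockout groups stood far apart, with the injured libraries within a narrow band. The Vamp1 change in the labelled knockouts was -1.10 ± 0.064 (adjusted p = 1.67e-05), and the control change was -1.04 ± 0.42 (adjusted p = 0.476), or -0.97 without the 3 libraries (adjusted p = 0.0109). Snap25 (ENSMUSG00000027273, chr2:136555373-136624348, plus strand) encodes the plasma membrane SNARE SNAP-25. Snap25 read 764, 355 and 353 FPKM in the uninjured and 404, 223, 181 and 455 FPKM in the injured controls. The 3 libraries that stand apart were the highest of their groups, and the control groups overlapped. For Snap25 the labelled knockouts gave 334, 363 and 377 FPKM without injury and 207, 267, 215 and 206 FPKM with it. All injured labelled-knockout libraries lay below the uninjured, replicate 2 being the highest of them. The Snap25 change in the labelled knockouts was -0.68 ± 0.10 (adjusted p = 0.00122), and the control change was -0.64 ± 0.45 (adjusted p = 0.870), or -0.81 without the 3 libraries (adjusted p = 0.0267). Stx1a, the gene for syntaxin 1A, behaved unevenly. Stx1a read 0.841, 6.80 and 4.99 FPKM in the uninjured and 1.73, 8.31, 7.24 and 0.669 FPKM in the injured controls. The 3 libraries that stand apart were the lowest of their groups, and the other injured controls were above the other uninjured ones. For Stx1a the labelled knockouts gave 8.73, 7.86 and 5.81 FPKM without injury and 6.94, 5.22, 4.63 and 6.31 FPKM with it. The labelled-knockout groups overlapped. The Stx1a change in the labelled knockouts was -0.32 ± 0.15 (adjusted p = 0.128), and the control change was -0.03 ± 0.76 (adjusted p = 0.999), or 0.36 without the 3 libraries (adjusted p = 0.172), so its control direction turned with the libraries used. Vamp2, the partner gene of Vamp1, averaged 99.7 ± 7.36 (SD, n = 3) FPKM without and 67.98 ± 4.47 (SD, n = 4) FPKM with injury in the labelled knockouts, a change of -0.55 ± 0.077 (adjusted p = 0.000805), and the control change was -0.40 ± 0.39 (adjusted p = 0.999), or -0.28 without the 3 libraries (adjusted p = 0.298).

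The calcium sensors of fusion split. Syt2 (ENSMUSG00000026452, chr1:134574415-134690331, plus strand), the fast sensor of hindbrain and cord synapses, had the largest fall of the 34 genes in both genotypes. Syt2 read 44.8, 111 and 130.2 FPKM in the uninjured and 37.2, 47.1, 47.99 and 23.9 FPKM in the injured controls. Uninjured replicate 1 was again within the range of the injured controls. For Syt2 the labelled knockouts gave 102, 107 and 121 FPKM without injury and 43.8, 57.9, 53.5 and 47.3 FPKM with it. Every injured labelled-knockout library was far below the uninjured. The Syt2 change in the labelled knockouts was -1.11 ± 0.11 (adjusted p = 0.000137), and the control change was -1.18 ± 0.43 (adjusted p = 0.396), or -1.32 without the 3 libraries (adjusted p = 0.00709). Syt4, which encodes a synaptotagmin whose first C2 domain does not bind calcium in the usual way and which sits on neuropeptide vesicles, did not follow. Syt4 read 104, 38.99 and 36.3 FPKM in the uninjured and 74.3, 42.7, 35.2 and 99.5 FPKM in the injured controls. The 3 libraries that stand apart were the highest, and the others were close together in both groups. For Syt4 the labelled knockouts gave 43.9, 41.4 and 38.7 FPKM without injury and 39.5, 52.8, 42.5 and 43.5 FPKM with it. The labelled-knockout groups overlapped. The Syt4 change in the labelled knockouts was 0.10 ± 0.10 (adjusted p = 0.447), and the control change was 0.12 ± 0.50 (adjusted p = 0.999), or 0.04 without the 3 libraries (adjusted p = 0.839). Syt1, the fast sensor of forebrain synapses, averaged 22.1 ± 3.98 (SD, n = 3) FPKM without and 14.4 ± 0.982 (SD, n = 4) FPKM with injury in the labelled knockouts, with no overlap, a change of -0.57 ± 0.11 (adjusted p = 0.00377). For Syt1 the control change was -0.45 ± 0.26 (adjusted p = 0.759), or -0.43 without the 3 libraries (adjusted p = 0.0444).

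**Figure D3:**
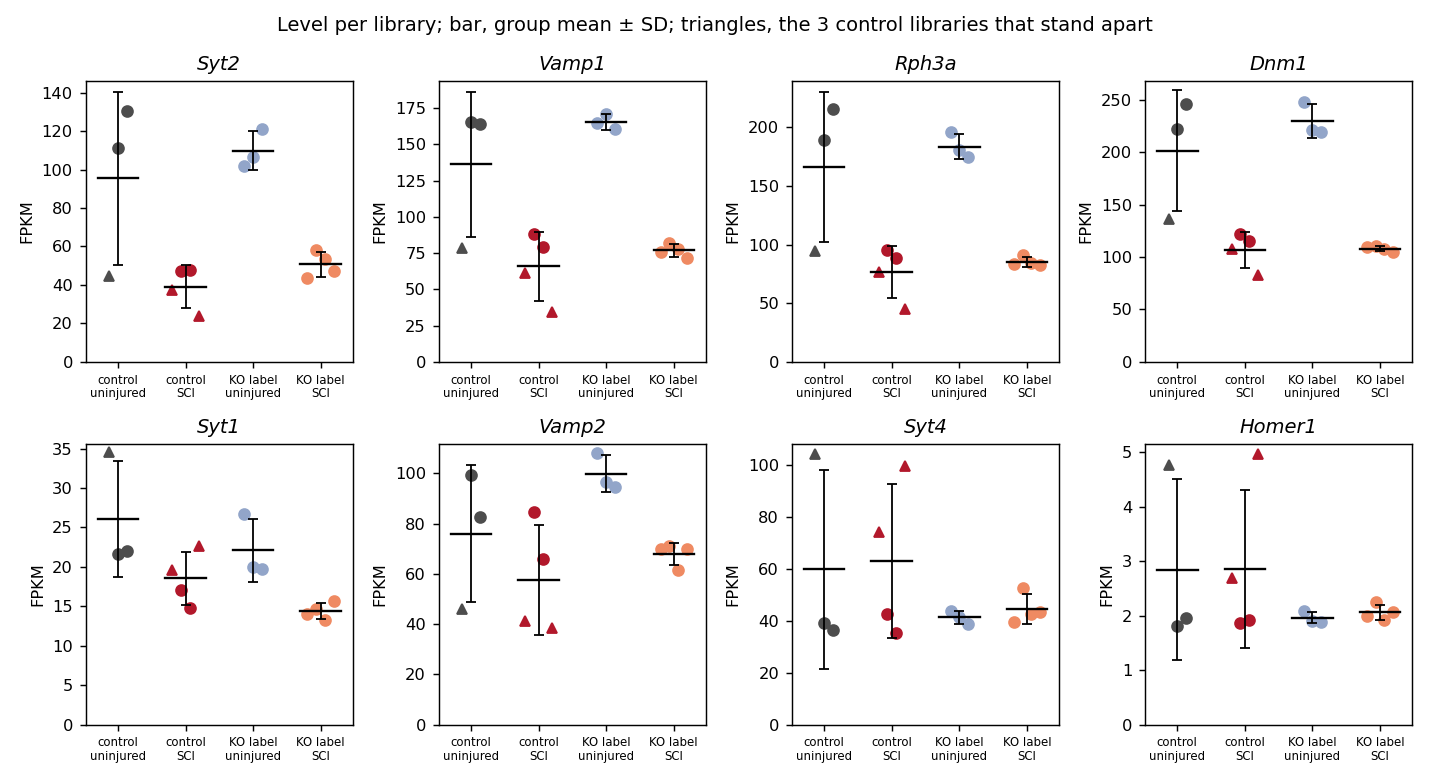
FPKM per library (y axes, from 0) of 8 genes in the 4 groups (x axes), with group mean ± SD as a bar and triangles for the 3 control libraries that stand apart. Injured labelled-knockout libraries lie below all uninjured ones for Syt2, Vamp1, Rph3a, Dnm1, Syt1 and Vamp2, whereas the groups overlap for Syt4 and Homer1.

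Complexins clamp and support fusion, and Unc13a encodes Munc13-1, which primes vesicles. All 3 of these genes were called lower in the labelled knockouts. Cplx1 was the most abundant of the 34 per kilobase. Cplx1 read 235, 692 and 698 FPKM in the uninjured and 222, 414, 358 and 135 FPKM in the injured controls. Each library that stands apart was the lowest or next to lowest of its group. For Cplx1 the labelled knockouts gave 727, 722 and 749 FPKM without injury and 359, 407, 404 and 376 FPKM with it. The labelled-knockout groups were widely separated. The Cplx1 change in the labelled knockouts was -0.92 ± 0.07 (adjusted p = 4.71e-05), and the control change was -0.90 ± 0.54 (adjusted p = 0.786), or -0.85 without the 3 libraries (adjusted p = 0.0253). Cplx2, the more forebrain-typical complexin, was about an order of magnitude lower. Cplx2 read 19.4, 60.9 and 59.5 FPKM in the uninjured and 22.7, 48.5, 42.4 and 13.4 FPKM in the injured controls. The control groups overlapped because of uninjured replicate 1. For Cplx2 the labelled knockouts gave 71.1, 57.2 and 57.1 FPKM without injury and 40.7, 38.5, 35.4 and 40.7 FPKM with it. Those groups did not overlap. The Cplx2 change in the labelled knockouts was -0.65 ± 0.093 (adjusted p = 0.000872), and the control change was -0.54 ± 0.57 (adjusted p = 0.999), or -0.40 without the 3 libraries (adjusted p = 0.0590). Unc13a averaged 10.7 ± 0.948 (SD, n = 3) FPKM without and 6.42 ± 0.534 (SD, n = 4) FPKM with injury in the labelled knockouts, with a change of -0.65 ± 0.081 (adjusted p = 0.000446). For Unc13a the control change was -0.71 ± 0.30 (adjusted p = 0.511), or -0.72 without the 3 libraries (adjusted p = 0.0185).

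Both genes of SNARE disassembly fell in the labelled knockouts and separated the groups in both genotypes. Nsf encodes the ATPase that pulls used SNARE complexes apart. Nsf read 105, 118 and 134 FPKM in the uninjured and 79.5, 68.3, 65.2 and 58.3 FPKM in the injured controls. All injured controls were below all uninjured ones, the libraries that stand apart included. For Nsf the labelled knockouts gave 127, 119.7 and 111 FPKM without injury and 61.7, 69.8, 60.2 and 62.6 FPKM with it. The separation was again complete. The Nsf change in the labelled knockouts was -0.90 ± 0.075 (adjusted p = 6.8e-05), and the control change was -0.80 ± 0.22 (adjusted p = 0.188), or -0.90 without the 3 libraries (adjusted p = 0.0122). Napb encodes beta-SNAP, the neuronal adaptor that brings NSF to the complex. Napb read 89.4, 64.4 and 74.6 FPKM in the uninjured and 61.7, 43.8, 39.96 and 58.4 FPKM in the injured controls. Here too no injured control reached the uninjured range, by a small margin. For Napb the labelled knockouts gave 67.7, 63.8 and 61.9 FPKM without injury and 36.5, 46.04, 40.1 and 41.9 FPKM with it. The labelled-knockout groups were well separated. The Napb change in the labelled knockouts was -0.64 ± 0.083 (adjusted p = 0.000545), and the control change was -0.58 ± 0.25 (adjusted p = 0.531), or -0.72 without the 3 libraries (adjusted p = 0.0205).

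The active zone scaffolds organise release sites beside calcium channels. All 3 were called lower in the labelled knockouts. Rims1 encodes RIM1, which tethers vesicles and channels. Rims1 read 14.5, 11.03 and 12.3 FPKM in the uninjured and 7.97, 6.75, 5.64 and 8.77 FPKM in the injured controls. The control groups did not overlap. For Rims1 the labelled knockouts gave 11.5, 10.1 and 11 FPKM without injury and 5.80, 6.78, 5.97 and 5.88 FPKM with it. Nor did the labelled-knockout groups. The Rims1 change in the labelled knockouts was -0.74 ± 0.072 (adjusted p = 0.000142), and the control change was -0.72 ± 0.22 (adjusted p = 0.264), or -0.82 without the 3 libraries (adjusted p = 0.0151). Bsn encodes Bassoon, a giant scaffold. Bsn read 4.06, 8.57 and 10.6 FPKM in the uninjured and 3.33, 5.08, 5.08 and 1.57 FPKM in the injured controls. Uninjured replicate 1 was within the injured range. For Bsn the labelled knockouts gave 9.42, 7.81 and 8.68 FPKM without injury and 4.52, 5.51, 5.06 and 5.66 FPKM with it. The labelled-knockout groups were apart. The Bsn change in the labelled knockouts was -0.64 ± 0.088 (adjusted p = 0.000733), and the control change was -0.87 ± 0.42 (adjusted p = 0.610), or -0.79 without the 3 libraries (adjusted p = 0.0168). Pclo, for the related scaffold Piccolo, had the smallest fall of the genes called in the labelled knockouts. Pclo read 12.6, 4.86 and 6.25 FPKM in the uninjured and 6.39, 2.98, 3.11 and 8.72 FPKM in the injured controls. The libraries that stand apart were the highest of each group. For Pclo the labelled knockouts gave 4.66, 4.40 and 4.44 FPKM without injury and 3.02, 4.16, 3.58 and 3.35 FPKM with it. The groups were close but did not overlap. The Pclo change in the labelled knockouts was -0.29 ± 0.089 (adjusted p = 0.0304), and the control change was -0.51 ± 0.43 (adjusted p = 0.960), or -0.69 without the 3 libraries (adjusted p = 0.0262).

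The Rab3 system brings vesicles to the active zone. All 3 genes were called lower in the labelled knockouts. Rph3a (ENSMUSG00000029608, chr5:121078562-121148155, minus strand) encodes rabphilin, which binds Rab3 on the vesicle. Rph3a read 94.3, 189 and 216 FPKM in the uninjured and 76.6, 95.7, 88.9 and 45.1 FPKM in the injured controls. Only uninjured replicate 1 approached the injured controls, and it lay inside their range. For Rph3a the labelled knockouts gave 196, 181 and 174 FPKM without injury and 83.7, 91.6, 84.2 and 82.4 FPKM with it. By injury, the labelled-knockout groups were far apart. The Rph3a change in the labelled knockouts was -1.09 ± 0.067 (adjusted p = 1.87e-05), and the control change was -1.08 ± 0.39 (adjusted p = 0.385), or -1.12 without the 3 libraries (adjusted p = 0.0102). Rab3a encodes the main Rab3 GTPase of synaptic vesicles. Rab3a read 144, 255 and 220.5 FPKM in the uninjured and 142, 171, 144 and 73.6 FPKM in the injured controls. The control groups overlapped through uninjured replicate 1. For Rab3a the labelled knockouts gave 268, 282 and 309.5 FPKM without injury and 141, 174, 175 and 161 FPKM with it. The labelled-knockout groups did not overlap. The Rab3a change in the labelled knockouts was -0.82 ± 0.094 (adjusted p = 0.000304), and the control change was -0.66 ± 0.36 (adjusted p = 0.721), or -0.59 without the 3 libraries (adjusted p = 0.0530). Rab3c, a lower-expressed relative, averaged 21.4 ± 1.32 (SD, n = 3) FPKM without and 15.3 ± 1.82 (SD, n = 4) FPKM with injury in the labelled knockouts (change -0.46 ± 0.094, adjusted p = 0.00498). For Rab3c the control change was -0.45 ± 0.38 (adjusted p = 0.956), or -0.62 without the 3 libraries (adjusted p = 0.0299).

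All 6 vesicle membrane genes were called lower in the labelled knockouts, with a range of -0.93 (Syp) to -0.49 (Sv2c). Syp encodes synaptophysin, an abundant vesicle protein that binds synaptobrevin. Syp read 23.4, 130.2 and 121 FPKM in the uninjured and 32.6, 91.96, 78.8 and 14.3 FPKM in the injured controls. The 3 libraries that stand apart were far below the rest of both groups. For Syp the labelled knockouts gave 148, 144 and 138 FPKM without injury and 79.5, 74.9, 72.5 and 72.9 FPKM with it. Uninjured and injured labelled knockouts were widely separated. The Syp change in the labelled knockouts was -0.93 ± 0.059 (adjusted p = 2.18e-05), and the control change was -0.73 ± 0.82 (adjusted p = 0.999), or -0.55 without the 3 libraries (adjusted p = 0.0407). Sv2a encodes the vesicle glycoprotein that levetiracetam binds. Sv2a read 59.05, 131 and 139.7 FPKM in the uninjured and 55.3, 82.2, 78.2 and 35.7 FPKM in the injured controls. The control groups overlapped through uninjured replicate 1. For Sv2a the labelled knockouts gave 136, 135 and 127 FPKM without injury and 75.7, 74.2, 75.1 and 72.8 FPKM with it. The injured labelled knockouts were within a few FPKM of each other and below all uninjured ones. The Sv2a change in the labelled knockouts was -0.83 ± 0.053 (adjusted p = 2.3e-05), and the control change was -0.77 ± 0.42 (adjusted p = 0.721), or -0.75 without the 3 libraries (adjusted p = 0.0147). The relatives Sv2b and Sv2c had no overlap between uninjured and injured in either genotype. The control change of Sv2b was -0.92 ± 0.21 and that of Sv2c -0.77 ± 0.26, or -1.005 and -1.05 without the 3 libraries, where both were called. The synaptogyrin genes Syngr1 and Syngr3, for small vesicle proteins akin to synaptophysin, changed by -0.70 ± 0.059 and -0.61 ± 0.092 in the labelled knockouts. For Syngr1 the control change was -0.76 ± 0.92 (adjusted p = 0.999), or -0.56 without the 3 libraries (adjusted p = 0.0216). For Syngr3 the control change was -0.40 ± 0.70 (adjusted p = 0.999), or -0.13 without the 3 libraries (adjusted p = 0.511).

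The synapsins tie vesicles into the reserve pool. Both fell in the labelled knockouts by almost the same amount and separated the groups in both genotypes. Syn1 read 149, 138 and 136 FPKM in the uninjured and 97.1, 89.6, 78.8 and 122 FPKM in the injured controls. The lowest uninjured control was above the highest injured one. For Syn1 the labelled knockouts gave 140.1, 133 and 121 FPKM without injury and 78.4, 85.9, 83.99 and 82.3 FPKM with it. The same held there with a wider gap. The Syn1 change in the labelled knockouts was -0.66 ± 0.069 (adjusted p = 0.000192), and the control change was -0.56 ± 0.23 (adjusted p = 0.476), or -0.70 without the 3 libraries (adjusted p = 0.0199). Syn2 was lower in level. Syn2 read 33.8, 44.1 and 44.7 FPKM in the uninjured and 28.3, 31.4, 28.8 and 18.8 FPKM in the injured controls. The control groups were apart by a small margin. For Syn2 the labelled knockouts gave 48.7, 44.8 and 42.3 FPKM without injury and 26.8, 28.6, 27.8 and 29.6 FPKM with it. By injury, the labelled-knockout groups were well apart. The Syn2 change in the labelled knockouts was -0.66 ± 0.066 (adjusted p = 0.000165), and the control change was -0.60 ± 0.25 (adjusted p = 0.503), or -0.55 without the 3 libraries (adjusted p = 0.0216).

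Both genes of vesicle retrieval were called lower in the labelled knockouts. Dnm1 (ENSMUSG00000026825, chr2:32198483-32243350, minus strand) encodes dynamin 1, the GTPase that cuts vesicles from the membrane. Dnm1 read 136, 222 and 245 FPKM in the uninjured and 107, 122, 115 and 82.96 FPKM in the injured controls. All injured controls were below all uninjured ones. For Dnm1 the labelled knockouts gave 248, 221 and 219.5 FPKM without injury and 109.6, 110.3, 108 and 105 FPKM with it. The injured labelled knockouts spanned a very narrow range. The Dnm1 change in the labelled knockouts was -1.08 ± 0.064 (adjusted p = 1.76e-05), and the control change was -0.88 ± 0.28 (adjusted p = 0.303), or -0.97 without the 3 libraries (adjusted p = 0.0118). Amph encodes amphiphysin, which recruits dynamin. Amph read 37.7, 36.3 and 35.4 FPKM in the uninjured and 25.8, 22.1, 21.7 and 19.03 FPKM in the injured controls. The control groups did not overlap, and the 3 libraries that stand apart were not set off in it among the uninjured. For Amph the labelled knockouts gave 40.5, 36.3 and 33.2 FPKM without injury and 20.8, 22.9, 20.7 and 23.7 FPKM with it. By injury, the labelled-knockout groups were apart too. The Amph change in the labelled knockouts was -0.71 ± 0.083 (adjusted p = 0.000331), and the control change was -0.70 ± 0.20 (adjusted p = 0.214), or -0.69 without the 3 libraries (adjusted p = 0.0117).

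The adhesion genes hold pre- and postsynaptic membranes together. Both neurexins, the presynaptic partners, were called lower in the labelled knockouts, and the neuroligin was not. Nrxn2 read 2.79, 23.5 and 23.96 FPKM in the uninjured and 4.53, 15.3, 15.5 and 1.47 FPKM in the injured controls. In the 3 libraries that stand apart Nrxn2 was far below the others. For Nrxn2 the labelled knockouts gave 24.6, 23.02 and 22.6 FPKM without injury and 15.2, 13.7, 13.6 and 14.7 FPKM with it. Among labelled knockouts the groups were well separated. The Nrxn2 change in the labelled knockouts was -0.68 ± 0.062 (adjusted p = 0.000106), and the control change was -0.77 ± 0.91 (adjusted p = 0.999), or -0.59 without the 3 libraries (adjusted p = 0.0137). Nrxn3 moved the opposite way in the libraries that stand apart. Nrxn3 read 23.6, 14.96 and 17.3 FPKM in the uninjured and 16.6, 8.58, 8.27 and 15.9 FPKM in the injured controls. The control groups overlapped by the injured replicates 1 and 4. For Nrxn3 the labelled knockouts gave 12.8, 13.7 and 12.4 FPKM without injury and 8.17, 9.90, 7.66 and 7.78 FPKM with it. Among labelled knockouts the groups were apart. The Nrxn3 change in the labelled knockouts was -0.58 ± 0.089 (adjusted p = 0.00123), and the control change was -0.60 ± 0.33 (adjusted p = 0.724), or -0.86 without the 3 libraries (adjusted p = 0.0112). Nlgn1 (ENSMUSG00000063887, chr3:25480379-26386609, minus strand) encodes neuroligin 1, the postsynaptic partner typical of excitatory synapses. Nlgn1 read 5.42, 2.80 and 2.70 FPKM in the uninjured and 3.52, 1.90, 1.90 and 4.67 FPKM in the injured controls. The libraries that stand apart were the highest of each group. For Nlgn1 the labelled knockouts gave 2.26, 2.48 and 2.15 FPKM without injury and 1.797, 2.03, 2.03 and 2.01 FPKM with it. All injured labelled knockouts were slightly below the uninjured. The Nlgn1 change in the labelled knockouts was -0.15 ± 0.073 (adjusted p = 0.127), and the control change was -0.23 ± 0.34 (adjusted p = 0.999), or -0.37 without the 3 libraries (adjusted p = 0.0464).

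Of the postsynaptic scaffold, 2 of 3 genes were called lower in the labelled knockouts. Dlg4 encodes PSD-95, the core scaffold of excitatory synapses. Dlg4 read 7.97, 22.6 and 22.3 FPKM in the uninjured and 9.05, 16.9, 15.5 and 5.33 FPKM in the injured controls. The libraries that stand apart were the lowest in each group. For Dlg4 the labelled knockouts gave 25.05, 23.5 and 24.4 FPKM without injury and 15.6, 15.1, 14.8 and 15.6 FPKM with it. The labelled-knockout groups did not overlap. The Dlg4 change in the labelled knockouts was -0.64 ± 0.052 (adjusted p = 6.22e-05), and the control change was -0.54 ± 0.50 (adjusted p = 0.979), or -0.45 without the 3 libraries (adjusted p = 0.0288). Shank1 encodes a deeper scaffold layer. Shank1 read 3.30, 18.4 and 19.4 FPKM in the uninjured and 3.62, 10.5, 11.2 and 2.07 FPKM in the injured controls. Here too the libraries that stand apart were the lowest. For Shank1 the labelled knockouts gave 19.9, 16.2 and 21.7 FPKM without injury and 11.2, 11.6, 11.2 and 9.52 FPKM with it. The groups were apart. The Shank1 change in the labelled knockouts was -0.76 ± 0.11 (adjusted p = 0.000768), and the control change was -0.84 ± 0.72 (adjusted p = 0.962), or -0.74 without the 3 libraries (adjusted p = 0.0110). Homer1 (ENSMUSG00000007617, chr13:93436143-93541637, plus strand) encodes the adaptor that links Shank to metabotropic glutamate receptors, and was the lowest of the 34 genes. Homer1 read 4.76, 1.81 and 1.96 FPKM in the uninjured and 2.68, 1.86, 1.92 and 4.96 FPKM in the injured controls. Apart from the 3 libraries that stand apart, all controls were within a narrow range. For Homer1 the labelled knockouts gave 2.08, 1.91 and 1.89 FPKM without injury and 1.99, 2.25, 1.92 and 2.07 FPKM with it. The labelled-knockout groups overlapped. The Homer1 change in the labelled knockouts was 0.046 ± 0.073 (adjusted p = 0.637), and the control change was 0.019 ± 0.37 (adjusted p = 0.999), or 0.0037 without the 3 libraries (adjusted p = 0.981). The counts are summed over transcripts, so the short activity-induced Homer1a form cannot be seen on its own.

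In the labelled knockouts general neuron markers fell about as much as the synapse genes. Of 16 markers such as Rbfox3 and the neurofilament genes, 15 were called lower in the labelled knockouts, with a median of -0.67. In the controls their median was -0.64 with 0 called, or -0.68 with 10 called without the 3 libraries that stand apart. Per library, the mean log2(FPKM + 1) of the 34 genes was 5.44 to 5.56 in uninjured and 4.79 to 4.91 in injured labelled knockouts. In the controls it was 4.93 to 5.53 without and 4.31 to 4.92 with injury, and the lowest uninjured library was just above the highest injured one. The 15 microglia and macrophage markers moved the other way, from a summed 171 to 216 FPKM to 2375 to 3634 FPKM in the labelled knockouts and from 97.3 to 201 FPKM to 1804 to 2594 FPKM in the controls, with at most 1 marker at 0 in a library. The 7 fibroblast markers went from a summed 15.6 to 36.3 FPKM to 154 to 425 FPKM in the labelled knockouts and from 37.7 to 53.4 FPKM to 175 to 706 FPKM in the controls, with none at 0. All 15 microglia and 7 fibroblast markers were called higher in the labelled knockouts, where 19.7% of all genes were. In the controls 9 and 3 of them were, where 1.03% of all genes were called higher. All 15 and 7 were called higher in the controls too once the 3 libraries were left out, where 12.2% of all genes were. Astrocyte marker sums were also higher with injury, at 2014 to 2256 against 3357 to 4048 FPKM in the labelled knockouts. In the controls they were 1524 to 2233 against 2466 to 3567 FPKM, but the mean log2(FPKM + 1) of these markers overlapped (6.25 to 6.54 against 6.51 to 6.79). Red cell marker sums went from 31.6 to 62.3 FPKM to 316 to 734 FPKM in the labelled knockouts. In the controls they went from 27.4 to 44.8 FPKM to 166 to 3979 FPKM. Oligodendrocyte marker sums overlapped between uninjured and injured in both genotypes. The part of these marker levels in the fall of the synapse genes was not tested.

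**Figure D4:**
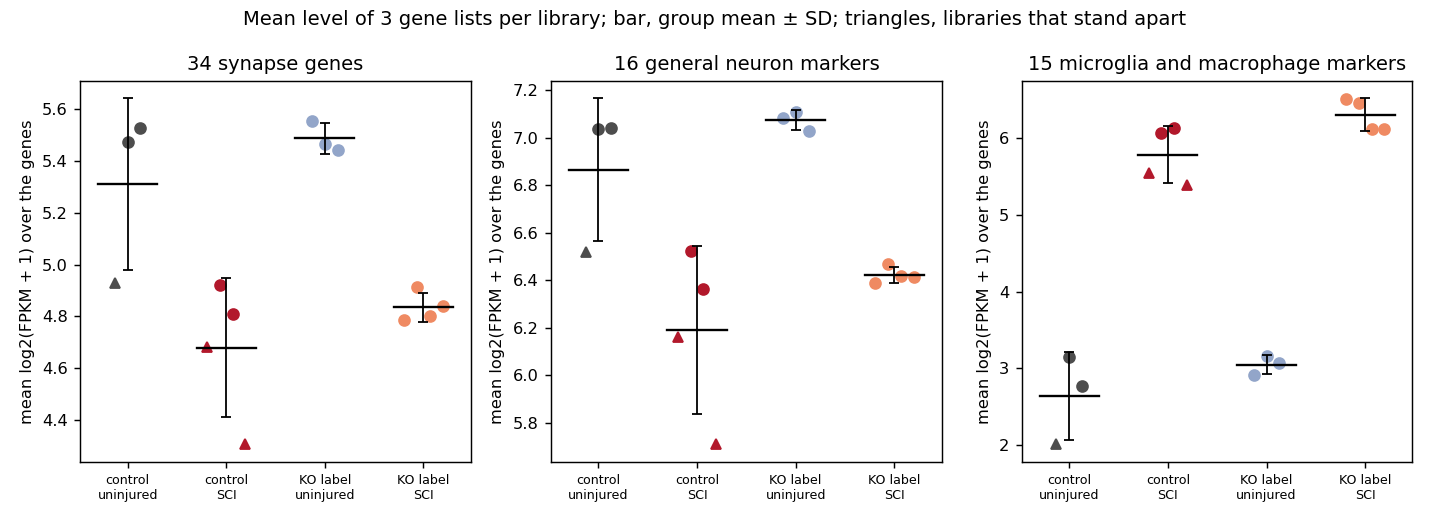
Mean log2(FPKM + 1) per library (y axes) over the 34 synapse genes, 16 general neuron markers and 15 microglia and macrophage markers in the 4 groups (x axes), with group mean ± SD as a bar and triangles for the 3 control libraries that stand apart. The synapse genes drop from 5.44 to 5.56 to 4.79 to 4.91 in the labelled knockouts, neuron markers drop alike and microglia markers rise.

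Whether a synapse gene moved beyond neuron RNA in general was asked by subtracting, in each library, the mean of the 16 neuron markers. In the labelled knockouts 8 of the 34 genes were then called lower, where 1.39% of all genes were: Vamp1 (-0.45), Syt2 (-0.45), Rph3a (-0.44), Dnm1 (-0.42), Syp (-0.27), Cplx1 (-0.27), Nsf (-0.24) and Sv2a (-0.17). Another 4 were called higher, where 82.3% of all genes were: Syt4 (0.75), Homer1 (0.70), Nlgn1 (0.50) and Pclo (0.37). The other 22 were not called relative to the neuron markers, and the median over the 34 was -0.0087. One fit over all 14 libraries called only Dnm1. In the controls 0 were called relative to the markers, and 0 of the 34 had an unadjusted p under 0.05, where 0.0% of all genes were called lower and 7.07% higher. Without the 3 libraries, Syt2, Vamp1, Rph3a, Sv2b and Sv2c were called lower, where 0.693% of all genes were, and Syt4, Homer1, Stx1a and Syngr3 higher, where 70.5% of all genes were. The replicate block called Stx1a and Syngr3 higher, where 40.2% of all genes were.

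Other genes of the synapse were lower as well. Of 71 further genes of release, vesicle filling and synaptic scaffolds, 70 passed the filter. In the labelled knockouts 52 were called lower and 4 higher, where 26.1% and 19.7% of all genes were, with a median of -0.42. Syt3, for a synaptotagmin of high calcium affinity, read 44.7, 48.6 and 43.96 FPKM without and 19.8, 21.7, 20.8 and 20.1 FPKM with injury in the labelled knockouts (change -1.11, adjusted p = 1.19e-05). Slc32a1, the vesicular GABA and glycine transporter of inhibitory neurons, read 104, 98.7 and 101 FPKM without and 45.8, 51.1, 47.6 and 44.96 FPKM with injury (change -1.08, adjusted p = 1.55e-05). Svop, a transporter-like vesicle protein, read 30.7, 29.1 and 27.5 FPKM without and 14.9, 12.7, 13.7 and 13.5 FPKM with injury (change -1.03, adjusted p = 2.57e-05). For these 3 genes the labelled-knockout groups did not overlap. Of the 4 genes called higher, the largest rises were those of Syngr2, a synaptogyrin of many tissues, by 0.88, Homer3 by 0.59 and Rab3d, known from secretory cells, by 0.55 on the log2 scale. Syngr2 rose from 12.98 to 24.5 FPKM. In the controls these rises were not called, and without the 3 libraries Syngr2 and Rab3d were called and Homer3 was not (adjusted p = 0.101).

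Members of a family share a function, so the ratio between relatives shows whether they fell in step. Over 12 such pairs, chosen after seeing the data, the log2 ratio was compared between injured and uninjured libraries by an exact two-sided permutation test within genotype, with p adjusted over the 12 pairs. Of the 1225 arrangements the smallest possible p is 0.000816. The Vamp1 to Vamp2 ratio changed by -0.60 (exact permutation p = 0.00163, adjusted p = 0.0196). It was 0.74 to 0.98 in uninjured and -0.16 to 0.58 in injured controls, and 0.60 to 0.82 against 0.033 to 0.34 in the labelled knockouts, with no overlap in either genotype and the libraries that stand apart on the side of their groups. The transcripts of this pair have G+C contents of 52.6 and 53.2%. Those of Syt4 and Syt1 have 40.7 and 45.8%, and those of Cplx1 and Cplx2 have 56.0 and 53.7%. The part of G+C content in the ratios was not tested. The Syt4 to Syt1 ratio rose by 0.63 (exact permutation p = 0.00571, adjusted p = 0.0229), without overlap in the labelled knockouts (0.69 to 1.02 against 1.42 to 1.78) and with overlap in the controls (0.70 to 1.56 against 1.20 to 2.08). The Cplx1 to Cplx2 ratio fell by 0.32 (exact permutation p = 0.00571, adjusted p = 0.0229), without overlap in the controls (3.48 to 3.53 against 3.05 to 3.24) and with overlap in the labelled knockouts (3.34 to 3.69 against 3.11 to 3.48). Without the 3 libraries its adjusted p was 0.0571. The Syt2 to Syt1 ratio changed by -0.63, which did not pass (exact permutation p = 0.104, adjusted p = 0.217), and by -0.71 without the 3 libraries (adjusted p = 0.0429). The Syt4 to Syt2 ratio changed by 1.26, which did not pass (adjusted p = 0.118), and by 1.28 without the 3 libraries (adjusted p = 0.0190). The 7 other pairs, among the synapsins, SV2 proteins, synaptogyrins, Rab3 genes and neurexins, had adjusted p from 0.217 to 0.931. In these families the ratio changed by -0.28 to 0.022.

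**Figure D5:**
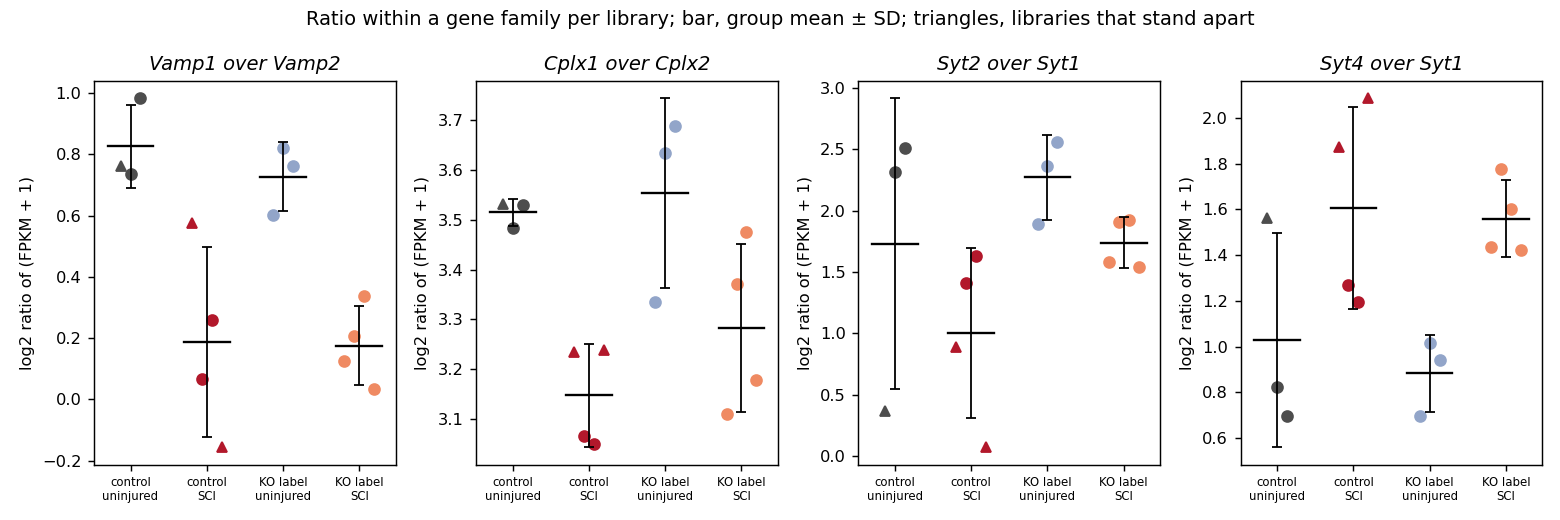
Log2 ratio of FPKM + 1 between relatives (y axes) per library in the 4 groups (x axes), with group mean ± SD as a bar and triangles for the 3 control libraries that stand apart. Vamp1 over Vamp2 is lower in every injured library than in any uninjured library of the same genotype, with a change of -0.60, and Syt4 over Syt1 changes by 0.63.

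The label of the astrocyte deletion made no called difference to the 34 genes. Without injury 0 of the 34 were called between the labelled knockouts and the controls, where 0.0% of all genes were called. At unadjusted p under 0.05 limma had 0 of the 34 and 331 of all genes, and voom called 0 as well. Changes ran from -0.60 (Pclo) to 0.98 (Syp), with a median of 0.19. The groups did not overlap for 9 of the 34 genes, a share close to the 23.3% of all genes, so it does not set the 34 apart. Cplx1, Rab3a, Syp, Syngr1, Syngr3 and Dlg4 were higher and Pclo, Nrxn3 and Nlgn1 lower in the labelled knockouts. Without control replicate 1, which stands apart, the median was -0.0078 and the changes ran from -0.29 to 0.32. After injury 0 of the 34 were called, where 0.0% of all genes were, and the groups overlapped for all 34, against 3.15% of all genes that did not overlap. At unadjusted p under 0.05 limma had 0 of the 34 and 497 of all genes, and voom had 1 of the 34. Changes ran from -0.45 (Nrxn3) to 1.01 (Syngr1), with a median of 0.15. Without the libraries that stand apart they ran from -0.38 to 0.31 with a median of -0.03, and that of Syngr1 was -0.081.

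Whether injury acted differently in the labelled knockouts was tested as an interaction over all 14 libraries. None of the 34 genes was called (0 of all genes, limma), with 0 of the 34 and 91 of all genes at an unadjusted p under 0.05. The differences, labelled knockout minus control, ran from -0.29 ± 0.83 (Stx1a) to 0.28 ± 0.29 (Sv2c). For Syt2 the difference was 0.075 ± 0.47 and for Vamp1 -0.054 ± 0.45. Without the 3 libraries 5 of the 34 had an unadjusted p under 0.05 (Syp, Sv2c, Syngr3, Stx1a and Pclo), or 14.7%, where 14.2% of all genes had, and 0 were called, with adjusted p from 0.310. The responses of the genotypes, which share no library, correlated across the 34 genes at r = 0.90 (rho = 0.85), and across all genes tested at 0.87. Leaving out the 3 libraries gave r = 0.72 over the 34 and 0.84 over all genes.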

How the data were processed

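Per the labels' protocols, poly(A) RNA of spinal cord tissue was sequenced in paired ends without keeping the strand, so antisense partners cannot be told apart. Per the submitters' processing notes, CASAVA 1.8 and HISAT2 were used with mm39. The sources used here do not name the gene counter or its annotation. The authors deposited FPKM per gene and library. Whole reads were recovered from FPKM and gene length (100% of values above 0 were whole within 0.01), and the FPKM already hold the authors' scaling between libraries by median-of-ratios factors (ratio 1).

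Values were analysed as log2(FPKM + 1) with limma 3.58.1 in R 4.3.3 (intensity trend, two-sided tests), and p-values were adjusted by Benjamini-Hochberg over the 15155 genes kept, with a threshold of 0.05. Comparisons of a pair of groups used their libraries only. The fit relative to neuron markers subtracted each library's mean over 16 markers. Tables and ratio tests were made in Python 3.11.15. G+C content was taken from the longest coding transcript in GENCODE M21, matched by gene. The fit was tested on simulated data. With the spread of the controls, it missed changes of sizes that it mostly called with the spread of the labelled knockouts. A lack of calls in the controls therefore does not show that levels were unchanged.

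Values in every library are given for the 2 most abundant genes of each role, the 3 largest falls and the 3 smallest falls or rises in each genotype, and the genes called relative to neuron markers. The members and lists were chosen with earlier results of these data known, and so were the libraries left out. Same-numbered control libraries deviated together across genes (r = 0.616, 0.832 and 0.733), and replicate 1 stands apart in both groups. Differently numbered controls did as well. Injured replicate 4 followed uninjured replicate 1 at r = 0.831, injured 3 followed uninjured 2 at 0.812 and injured 2 followed uninjured 3 at 0.708. Such values occur within the libraries that stand apart and within the rest, so they do not show that numbers pair samples. In the other comparisons at least 1 same-number correlation was below 0.1. The alternatives were another pseudocount (0.1), filters, scalings, voom, array weights, 1 fit of all libraries, a replicate block and left-out libraries.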

Additional observations from a re-analysis of the deposited data

Results flagged for a closer look

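Among 70 groups of 4 libraries, 3 held a library far from the other members of its group, where chance alone flags about 1 in 20. All were injured labelled knockouts. Snap25 read 267 FPKM in replicate 2, against 206 to 215 FPKM in the others. Vamp2 read 61.3 FPKM in replicate 3, against 69.7 to 71.1 FPKM. Nlgn1 read 1.797 FPKM in replicate 1, against 2.01 to 2.03 FPKM.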

How the results depend on the processing

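In the labelled knockouts, the share of all genes called lower on injury varied with the setting. It was 9.12% with no filter, 36.5% with a filter of 5 FPKM and between these under the other changes of processing. With each replicate left out it was 20.0 to 25.8%. Beside these shares, 29 to 32 of the 34 genes were called on injury under the other pseudocount, filters, scalings, voom, array weights and the replicate block (30), and 29 to 30 when each replicate was left out. The count was 8 in 1 fit of all 14 libraries and 12 without the 4 rRNA-rich libraries, where the median was -0.72, fewer samples being left. In the controls the count was 0 in every leave-one-out fit and under the other pseudocount, filters, scalings and voom, but 8 in the fit of all libraries, 25 with array weights, 5 with the replicate block and 27 without the 3 libraries that stand apart. In that order, 1.87%, 15.7%, 1.47% and 11.7% of all genes were called lower there. Relative to neuron markers the controls gave 10 with array weights, 2 with the replicate block and 9 without the 3 libraries, where 74.9%, 40.4% and 71.2% of all genes were called, nearly all higher. The labelled knockouts gave 1 in the fit of all libraries, where 32.0% were. Between genotypes no setting called any of the 34, and the median after injury was -0.054 with array weights. For the labelled knockouts the replicate block gave 7 lower and 5 higher relative to neuron markers, where 1.13% and 79.6% of all genes were. Without the block 8 were lower and 4 higher, where 1.39% and 82.3% of all genes were.

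Over all genes tested, the control injury count of 158 ranged from 15 to 125 when each replicate was left out, and was 63 with no filter, 94 with a filter of 5 FPKM, 1073 in the fit of all libraries, 4989 with array weights, 1030 with the block and 3624 without the 3 libraries. The labelled-knockout count of 6943 was 1141 in the fit of all libraries and 1446 without the rRNA-rich ones. Scaling to library totals moved the median of all genes in the control comparison from -0.051 to 0.050, and voom to 0.066.

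Settings were compared for the injury changes of all 34 genes, for the 2 extreme genes of each genotype comparison and of the interaction, and for the 12 ratios, and the directions that turned among these follow. In the controls Stx1a changed by -0.030 but by 0.054 with library totals, 0.43 with array weights, 0.43 with the block, 0.36 without the 3 libraries and -0.66 to 0.43 with a replicate left out. Syt4 changed by -0.13 with the block and -0.14 to 0.61 leave-one-out, Syngr3 by 0.12 and -0.97 to 0.12, Nlgn1 by -0.42 to 0.031 leave-one-out, and Homer1 by -0.00974 with array weights, -0.21 with the block and -0.21 to 0.35 leave-one-out. No uninjured control is replicate 4, so these block changes equal those with injured control replicate 4 left out. In the labelled knockouts without the rRNA-rich libraries Syt4 changed by -0.11 and Homer1 by -0.000218. After injury Syngr1 differed between genotypes by -0.058 with array weights and -0.081 without the 3 libraries. The Stx1a interaction was -0.75 to 0.34 leave-one-out. Without the 3 libraries the Syn1 to Syn2 ratio changed by -0.078 and the Nrxn2 to Nrxn3 ratio by 0.086. The cause of these turns was not tested. Depth gave each of the 34 genes at least 27 reads in a library, the least for Stx1a.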

Other observations

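Within the labelled knockouts, the size of the fall differed among the 34 genes in a way that followed other properties of the genes. Genes of higher mean level fell further (r = -0.59, rho = -0.61 across the 34 genes between mean log2 level and log2 change). The log2(FPKM + 1) scale understates changes of low genes, which gives a relation of this direction by itself. How much of it comes from the scale was not tested. Genes of higher G+C content fell further as well (r = -0.58, rho = -0.45), while over 13082 genes tested that relation was r = -0.15 (rho = -0.23). These are descriptions across genes that share the same 7 libraries, none of which is among the 3 control libraries that stand apart.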
